A study of Homo sapiens with 2 samples.

Results

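The proteasome subunit genes were taken as the protein-coding RefSeq genes whose symbol is PSMA, PSMB, PSMC, PSMD, PSME, PSMF or PSMG followed by digits and nothing else. This rule gave 48 of the 20037 protein-coding genes in the annotation. Binding of ETV4, a transcription factor of the ETS family, was measured by ChIP-seq in A549 cells, a human lung adenocarcinoma line. ETV4 had been knocked down in these cells by shRNA (A549-shETV4), and Flag-tagged ETV4 was put back by transfection. There was 1 anti-Flag immunoprecipitate and 1 input library from these cells, so the peaks describe a single line that expresses a transfected, tagged protein. The Flag antibody is named differently in the study's methods (CST) and in the sample labels (Sigma F1804), which was not settled. The immunoprecipitate's list held 54389 peaks on hg38. With no replicate, no test between conditions or gene classes could be made, and the values below are described beside those of all protein-coding genes.

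The 26S proteasome degrades proteins that carry ubiquitin chains. Its barrel-shaped core particle is built from stacked rings of alpha subunits, which gate the entrance, and beta subunits, some of which cut the protein. The regulatory cap recognizes ubiquitin, removes it and unfolds the substrate: a ring of ATPases and several non-ATPase subunits form its base, and the remaining subunits form its lid. Interferon-inducible beta subunits replace the standard catalytic ones in the immunoproteasome, which makes peptides for display on MHC class I molecules, and dedicated chaperones assemble the core and the base. ETS factors bind DNA at a GGAA center, and the letters CGGAAG are a common form of the site in promoters.

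The promoters below are the RefSeq windows on GRCh38.p14, from 250 bases before a listed start to 50 bases from it, on the gene's strand. PSMD7 and PSMD12 are shown as the cap genes with the highest and the lowest fold enrichment among those with a peak summit inside the window. PSMA6 and PSMA4 were the only core genes of that kind, and PSMD9 had the highest fold of the assembly genes of that kind. The strongest core gene, PSMB4, is not shown because its summit lay just past the end of its window. No immunoproteasome gene had a summit inside the window. PSMD14 and PSMB5 were chosen after their values were seen. PSMD14 holds CGGAAG at 2 places and PSMD12 at 1, on the other strand, and the PSMD14 peak was much stronger. PSMB5 had no peak. Capitals mark CGGAAG on either strand (CTTCCG where it lies on the other strand).
PSMD7, chr16:74296564-74296863, plus strand: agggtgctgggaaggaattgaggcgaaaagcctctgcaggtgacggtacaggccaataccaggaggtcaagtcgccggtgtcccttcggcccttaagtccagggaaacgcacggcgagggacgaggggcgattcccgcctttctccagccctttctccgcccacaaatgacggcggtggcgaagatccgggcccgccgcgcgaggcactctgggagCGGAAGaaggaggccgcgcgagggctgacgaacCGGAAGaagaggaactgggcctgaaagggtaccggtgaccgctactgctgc
PSMD14, chr2:161308175-161308474, plus strand: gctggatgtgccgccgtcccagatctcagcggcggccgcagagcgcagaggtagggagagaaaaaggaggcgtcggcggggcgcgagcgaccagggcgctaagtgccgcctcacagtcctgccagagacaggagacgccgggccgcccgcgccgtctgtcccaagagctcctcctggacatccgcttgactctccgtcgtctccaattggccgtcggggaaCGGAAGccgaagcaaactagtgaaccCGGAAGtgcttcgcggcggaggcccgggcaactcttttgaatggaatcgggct
PSMD12, chr17:67366528-67366827, minus strand: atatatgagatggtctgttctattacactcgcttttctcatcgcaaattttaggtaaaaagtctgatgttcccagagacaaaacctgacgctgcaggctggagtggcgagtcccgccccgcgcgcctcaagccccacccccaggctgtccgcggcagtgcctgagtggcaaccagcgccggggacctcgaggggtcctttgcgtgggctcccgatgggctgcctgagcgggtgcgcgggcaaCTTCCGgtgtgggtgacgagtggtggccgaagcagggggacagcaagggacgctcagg
PSMA6, chr14:35292132-35292431, plus strand: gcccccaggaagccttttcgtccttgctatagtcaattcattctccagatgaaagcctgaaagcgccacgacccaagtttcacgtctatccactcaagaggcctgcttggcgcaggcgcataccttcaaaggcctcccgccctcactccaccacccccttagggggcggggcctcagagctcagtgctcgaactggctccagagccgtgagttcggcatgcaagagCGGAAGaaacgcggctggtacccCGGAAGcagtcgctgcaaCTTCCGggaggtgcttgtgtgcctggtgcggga
PSMA4, chr15:78540536-78540835, plus strand: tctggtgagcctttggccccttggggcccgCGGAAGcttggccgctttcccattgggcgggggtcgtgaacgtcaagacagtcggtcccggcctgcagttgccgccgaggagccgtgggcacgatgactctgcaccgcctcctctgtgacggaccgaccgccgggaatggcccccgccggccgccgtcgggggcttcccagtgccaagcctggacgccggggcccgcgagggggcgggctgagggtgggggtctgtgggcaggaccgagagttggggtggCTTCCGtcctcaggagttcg
PSMD9, chr12:121888540-121888839, plus strand: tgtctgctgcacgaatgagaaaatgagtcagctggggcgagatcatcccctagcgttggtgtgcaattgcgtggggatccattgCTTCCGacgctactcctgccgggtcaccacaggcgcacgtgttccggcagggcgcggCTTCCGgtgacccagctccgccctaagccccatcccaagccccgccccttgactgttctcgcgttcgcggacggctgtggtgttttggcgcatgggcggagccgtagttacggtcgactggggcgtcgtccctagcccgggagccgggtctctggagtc
PSMB5, chr14:23035171-23035470, minus strand: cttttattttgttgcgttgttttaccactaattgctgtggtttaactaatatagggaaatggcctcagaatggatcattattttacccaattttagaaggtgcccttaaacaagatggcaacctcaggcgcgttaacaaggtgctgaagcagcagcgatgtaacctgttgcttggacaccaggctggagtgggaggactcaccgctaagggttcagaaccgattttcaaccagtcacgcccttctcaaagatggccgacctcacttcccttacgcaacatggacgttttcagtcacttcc

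Of the 48 genes, 39 (81.3%, Wilson 95% interval 68.1 to 89.8) had a peak that came within 1 kb of either outer end, compared with 12444 of 20037 protein-coding genes (62.1%). The fold enrichment is the ratio of the fragment pileup to the control level at the summit, after 1 is added to each. It was taken from the strongest such peak of a gene. The median fold was 17.4 over the proteasome genes with a peak, close to 17.6 over all protein-coding genes with one. The fold ranged from 2.97 at PSMA3 to 55.2 at PSMD7. A peak with a fold over 10 was found at 29 proteasome genes (60.4%), where the share of all protein-coding genes was 45.2%. A fold over 20, a limit chosen after the values were seen, was reached at 15 proteasome genes (31.3%, interval 19.9 to 45.3) and at 27.6% of all protein-coding genes. The proteasome genes thus had a peak more often than protein-coding genes did as a whole, with a middle fold like theirs, and their folds were spread unevenly over the classes.

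**Figure D1:**
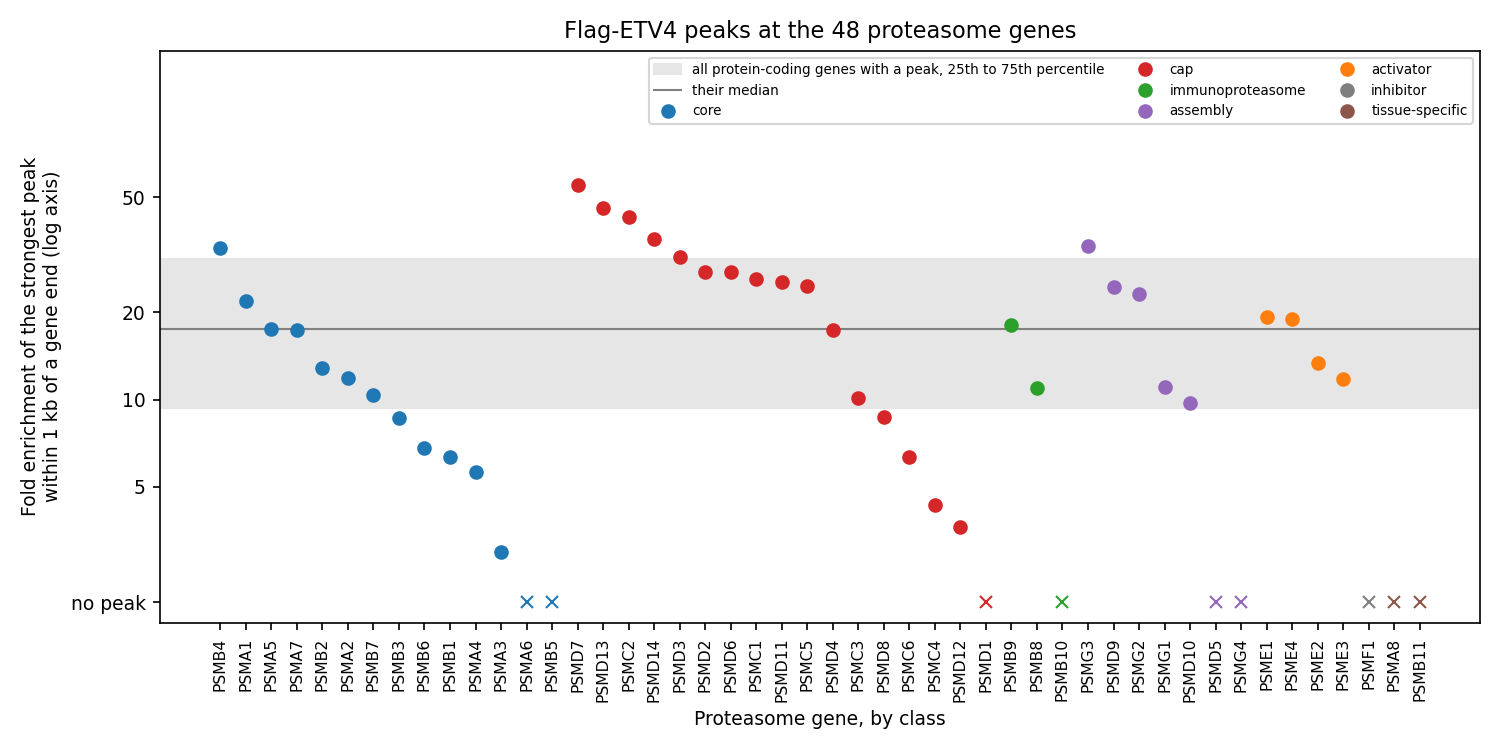
Fold enrichment (log axis) of the strongest Flag-ETV4 peak within 1 kb of an outer end of each of the 48 proteasome genes, by class, with crosses for genes without such a peak. The gray band spans 9.33 to 30.6, the 25th to 75th percentile of all protein-coding genes with a peak, around a median of 17.6. Over a fold of 10 lie 12 of the 17 cap genes and 7 of the 14 core genes. Over 20, a limit chosen after the values were seen, lie 10 of the 17 cap genes and 2 of the 14 core genes.

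The core genes had peaks at 12 of 14 members (85.7%, interval 60.1 to 96.0), where all protein-coding genes had 62.1%. The median fold of the core was 11.1, with a range from 2.97 to 33.4. The strongest was at PSMB4, a beta subunit without catalytic activity. Its peak (chr1:151399260-151400167) had a fold of 33.4, a −log10 q of 109 and 83 fragments at the summit (exact Poisson 95% interval 66.1 to 103) over a control level of 1.52, with its summit 56 bp downstream of the start. PSMA1 followed with a fold of 21.9 at chr11:14643605-14645155 (−log10 q of 56.8). That summit had 49 fragments (36.3 to 64.8) over 1.28, the lowest control level of the list, and lay 768 bp from the outer end of PSMA1. PSMA5 had a fold of 17.5 at chr1:109425828-109426974 (−log10 q of 89.5). It had 99 fragments (80.5 to 121), the most of any core gene, over a high control level of 4.73, and its summit lay 324 bp downstream of the start.

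At the other end of the core, the peak of PSMA3 (chr14:58245309-58245534) had a fold of 2.97, a −log10 q of 1.95 and 10 fragments (4.80 to 18.4) over 2.70, with its summit 471 bp downstream of the start. PSMA4 (chr15:78540569-78540936) had a fold of 5.62, a −log10 q of 7.97 and 16 fragments (9.15 to 26.0) over 2.03, with its summit 15 bp downstream of the listed start whose promoter is printed above. PSMB1 (chr6:170553009-170553432) had a fold of 6.35, a −log10 q of 14.1 and 28 fragments (18.6 to 40.5) over 3.56, with its summit 2 bp from an outer end. A weaker PSMB1 peak beside it (chr6:170554200-170554610) had a fold of 5.01 with 26 fragments (17.0 to 38.1). The pileup intervals of PSMA3 and PSMA4 thus overlapped each other and lay below those of PSMB4 and PSMA5. Of the catalytic subunits, PSMB7 (the trypsin-like beta2) had a fold of 10.4, PSMB6 (the caspase-like beta1) one of 6.81 from 15 fragments (8.40 to 24.7), and PSMB5 (the chymotrypsin-like beta5) had no peak. The remaining core genes were PSMA7 with 17.3, PSMB2 with 12.9, PSMA2 with 11.9 and PSMB3 with 8.65, and PSMA6 without a peak at its outer ends. The alpha genes (6 of 7 with a peak, median 14.6) and the beta genes (6 of 7, median 9.52) did not separate, since the highest fold of the core was at a beta gene and the lowest at an alpha gene.

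The cap genes had peaks at 16 of 17 members (94.1%, interval 73.0 to 99.0), where all protein-coding genes had 62.1%. The median fold of the cap was 25.8, with a range from 3.64 to 55.2. A fold over 10 was found at 12 of 17 cap genes (70.6%, interval 46.9 to 86.7) and 7 of 14 core genes (50%, 26.8 to 73.2). These intervals overlapped widely, and all protein-coding genes had 45.2%. The limit of 20 was chosen after the values were seen. Over it were 10 of 17 cap genes (58.8%, 36.0 to 78.4) and 2 of 14 core genes (14.3%, 4.01 to 39.9), and the intervals overlapped slightly. The genes share 1 library, so the intervals do not test the classes against each other. The strongest peak was at PSMD7, a lid subunit that pairs with the deubiquitinase PSMD14. It spanned chr16:74296012-74297484, with a fold of 55.2, a −log10 q of 246 and 166 fragments (142 to 193) over a control level of 2.03, and its summit lay 9 bp upstream of the start. PSMD13, another lid subunit, had a fold of 45.8 at chr11:235888-237663 (−log10 q of 174), with 122 fragments (101 to 146) over 1.69 and its summit 25 bp downstream of the start. PSMC2, an ATPase of the base, had a fold of 42.7 at chr7:103347415-103348188 (−log10 q of 207), with 155 fragments (132 to 181) over 2.65 and its summit 62 bp downstream. By percentile among all protein-coding genes with a peak, PSMD7 stood at 94.3, PSMD13 at 89.8 and PSMC2 at 88.1.

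The lid was the group with the highest folds, with a median of 29.3. All 8 of its genes had a peak (interval 67.6 to 100), where all protein-coding genes had 62.1%. A fold over 20 was reached at 6 of the 8, where all protein-coding genes had 27.6%. PSMD14, which cuts ubiquitin chains off the substrate, had a fold of 35.9 and the largest pileup of any proteasome gene, 190 fragments (164 to 219), over a control level of 4.32. PSMD3 had 31.1, PSMD6 27.6 and PSMD11 25.5. PSMD8 and PSMD12 were the low lid genes. PSMD8 had a fold of 8.73 with 49 fragments (36.3 to 64.8) over 4.73. PSMD12 had a fold of 3.64 at chr17:67366253-67366633 (−log10 q of 3.00), with 10 fragments (4.80 to 18.4) and its summit 8 bp upstream of the start. A second PSMD12 peak (chr17:67365708-67366009) had a fold of 2.97 with 12 fragments (6.20 to 21.0), 793 bp downstream of the start. PSMD7 and PSMD12 had the same control level of 2.03 at their strongest summits, so the difference between their folds came from the pileups, whose intervals were far apart.

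The ATPases of the base all had a peak (6 of 6, interval 61.0 to 100), where all protein-coding genes had 62.1%. The median fold of these ATPases was 17.4, but with a wide range. After PSMC2 came PSMC1, PSMC5 with 24.7 and PSMC3 with 10.2. PSMC1 had a fold of 26.1 at chr14:90256314-90257008 (−log10 q of 124), with 113 fragments (93.1 to 136) over 3.38 and its summit 18 bp downstream of the start. It had a second peak at its 3′ end (chr14:90275123-90275395) of fold 2.97 with 9 fragments (4.12 to 17.1). PSMC6 had a fold of 6.37 at chr14:52706799-52707570 (−log10 q of 14.6), with 29 fragments (19.4 to 41.6) over 3.71 and its summit 152 bp upstream of the start. PSMC4 had a fold of 4.32 at chr19:39970819-39971351 (−log10 q of 10.04), with 31 fragments (21.1 to 44.0) over 6.41, the highest control level of the 39 genes, and its summit 7 bp upstream. Its pileup was therefore like that of PSMC3 (30, interval 20.2 to 42.8), whose control level was 2.05, although its fold was lower. Of the other base subunits, PSMD2, a scaffold, had a fold of 27.7, the ubiquitin receptor PSMD4 had 17.4, and the scaffold PSMD1 had no peak.

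**Figure D2:**
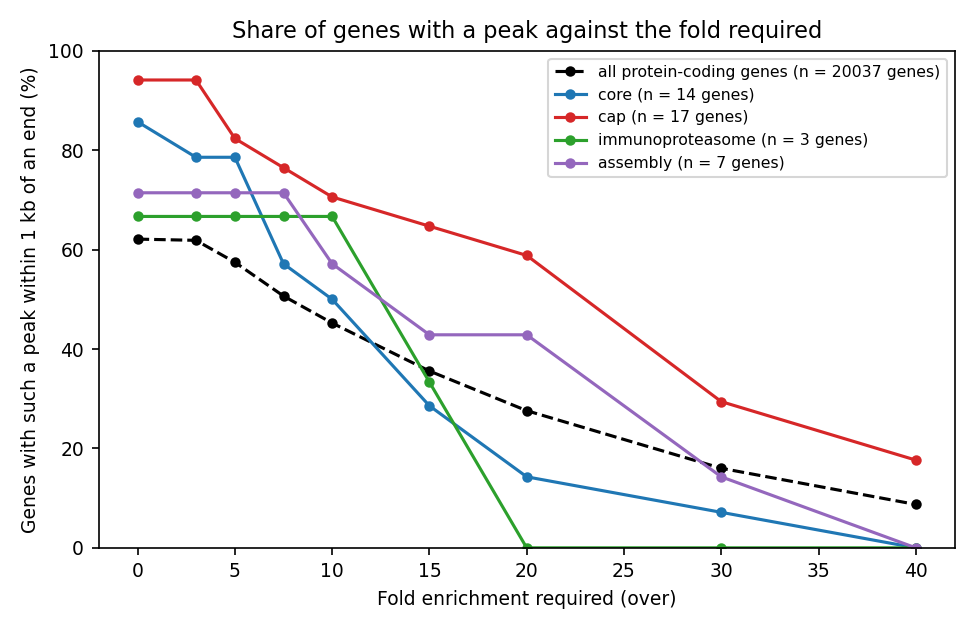
Percentage of genes with a peak within 1 kb of an end (vertical axis) against the fold enrichment that the peak had to exceed (horizontal axis), for 4 classes of proteasome genes and for all protein-coding genes. At a limit of 10 the cap genes stand at 70.6%, the core genes at 50% and all protein-coding genes at 45.2%. At a limit of 20, chosen after the values were seen, the cap genes stand at 58.8%, all protein-coding genes at 27.6% and the core genes at 14.3%. At a limit of 5 the cap and core genes stand at 82.4% and 78.6%.

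**Figure D3:**
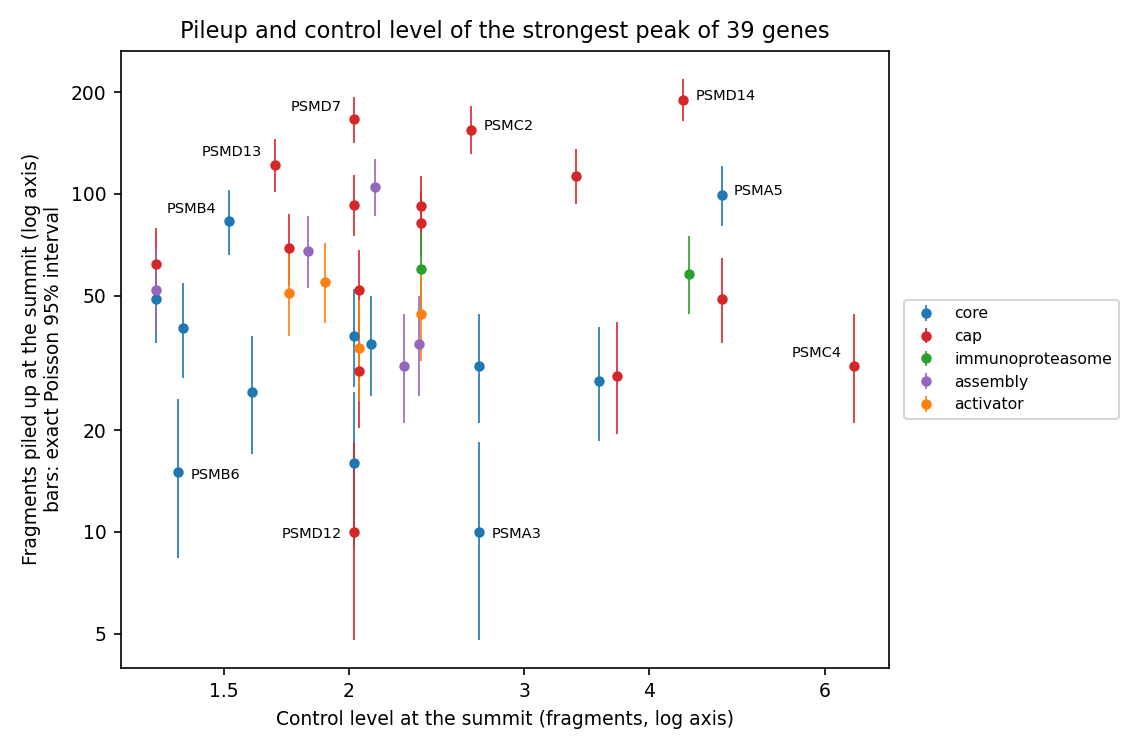
Fragments piled up at the summit of the strongest peak (vertical log axis, bars are exact Poisson 95% intervals) against the control level there (horizontal log axis, in fragments), with 1 point for each of the 39 genes with a peak. The pileups run from 10 at PSMA3 and PSMD12 to 190 at PSMD14, over control levels from 1.28 to 6.41, the latter at PSMC4.

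The order of the genes by fold was nearly their order by pileup (Spearman's rho 0.93 across the 39 genes, which share 1 library and whose fold holds the pileup itself). The median pileup was 75.5 fragments for cap genes and 33.5 for core genes, while the median control levels were 2.21 and 2.03. The lower folds of the core thus went with smaller pileups and not with higher control levels.

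Of the 3 immunoproteasome genes, PSMB8 and PSMB9 had a peak and PSMB10 did not. This share of 66.7% (interval 20.8 to 93.9) was near the 62.1% of all protein-coding genes. PSMB9 (beta1i) had a fold of 18.1 at chr6:32852645-32854524 (−log10 q of 59.1), with 60 fragments (45.8 to 77.2) over 2.36 and its summit 507 bp upstream of the start. This summit lay 19 bp from an outer end of TAP1, which encodes a subunit of the peptide transporter that feeds MHC class I molecules. PSMB8 (beta5i) had a fold of 11.0 at chr6:32843638-32844594 (−log10 q of 41.5), with 58 fragments (44.0 to 74.98) over 4.39 and its summit 74 bp downstream of the nearest of its listed starts. The PSMB8 and PSMB9 pileups did not differ beyond their intervals, and their unequal folds followed the control levels. The genes are 9.51 kb apart, with TAP1 between them. PSMB10 (beta2i), on chromosome 16, had its nearest peak 16.2 kb away, with a fold of 3.94 from 8 fragments.

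The 4 activators, which cap the core in place of the ATP-dependent particle, all had a peak, with folds within a narrow range. The interval of that share ran from 51.0 to 100, and all protein-coding genes had 62.1%. PSME1, a subunit of the interferon-inducible PA28 ring, had 19.3 at chr14:24135627-24136707 (−log10 q of 57.3), with 55 fragments (41.4 to 71.6) over 1.90 and its summit 261 bp upstream. Its partner PSME2 had 13.4 at chr14:24145210-24148152 (−log10 q of 37.7), with 44 fragments (32.0 to 59.1) over 2.36. The PSME2 summit lay 1099 bp upstream of the start and 834 bp from an end of RNF31, so it counted through the peak's width. PSME3, the nuclear PA28 gamma, had 11.8 at chr17:42832810-42833959 (−log10 q of 28.7), with 35 fragments (24.4 to 48.7) over 2.05 and its summit 249 bp upstream. A second peak (chr17:42844242-42844512) at its 3′ end had a fold of 4.82 with 10 fragments (4.80 to 18.4). PSME4, which encodes PA200, had 18.9 at chr2:53969895-53971338 (−log10 q of 53.3), with 51 fragments (38.0 to 67.1) over 1.74 and its summit 61 bp upstream.

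Peaks reached an outer end at 5 of the 7 assembly genes, with a median fold of 23.2. This share of 71.4% (interval 35.9 to 91.8) was near the 62.1% of all protein-coding genes. The chaperones of the core were led by PSMG3, with a fold of 33.9 at chr7:1569637-1570745 (−log10 q of 133) and 105 fragments (85.9 to 127) over 2.12, its summit 25 bp from an outer end. PSMG2 had 23.2 at chr18:12656885-12658921 (−log10 q of 61.6), with 52 fragments (38.8 to 68.2) over 1.28, the lowest control level of the list, and its summit 764 bp upstream. A further peak at its other listed start (chr18:12701904-12703419) had a fold of 14.8. PSMG1, which pairs with PSMG2, had 11.0 at chr21:39183770-39184174 (−log10 q of 27.9), with 36 fragments (25.2 to 49.8) over 2.35 and its summit 514 bp upstream. A second PSMG1 peak (chr21:39183096-39183522) had a fold of 9.42 with 32 fragments (21.9 to 45.2), 191 bp downstream of the start. The intervals of both PSMG1 peaks overlapped, so neither was clearly the stronger.

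Among the chaperones of the base, PSMD9 had a fold of 24.5 at chr12:121888439-121889202 (−log10 q of 78.1), with 68 fragments (52.8 to 86.2) over 1.82 and its summit 115 bp upstream. Its second peak, at the 3′ end (chr12:121918337-121918827), had a fold of 11.9 with 28 fragments (18.6 to 40.5) and lay 87 bp from an end of CFAP251. PSMD10, known as gankyrin, had 9.77 at chrX:108090855-108092134 (−log10 q of 22.5), with 31 fragments (21.1 to 44.0) over 2.28 and its summit 316 bp upstream. PSMD5 and the core chaperone PSMG4 had no peak at an outer end.

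The remaining genes with more than 1 peak were PSMB2, PSMA2 and PSMA5. The stronger PSMB2 peak (chr1:35641192-35641876, −log10 q of 32.6) had a fold of 12.9 and 38 fragments (26.9 to 52.2) over 2.03, 51 bp downstream of the start, and the weaker (chr1:35640463-35640917) had 4.59 and 16 fragments (9.15 to 26.0). At PSMA2, the peak nearer to the start (chr7:42931848-42932566, summit 272 bp upstream) was the weaker, with 4.59 and 16 fragments (9.15 to 26.0), and the stronger (chr7:42932952-42933741, −log10 q of 29.5, summit 1169 bp upstream) had 36 fragments (25.2 to 49.8) over 2.11. The second PSMA5 peak (chr1:109397235-109398741) had a fold of 11.0 with 31 fragments (21.1 to 44.0), lay at the 3′ end and was 428 bp from an end of SORT1.

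The 9 genes without a peak within 1 kb of an outer end were PSMA6, PSMB5, PSMD1, PSMB10, PSMD5, PSMG4, PSMF1 and the tissue-specific PSMA8 (testis) and PSMB11 (thymus). The outer ends pool all transcripts of a gene, and 3 of the 9 had a summit at a listed start inside the gene. PSMF1, the inhibitor PI31, had a peak of fold 20.4 (chr20:1118283-1119259, −log10 q of 100) with 102 fragments (83.2 to 124) over 4.05, 34 bp upstream of such a start. PSMA6 had one of fold 9.30 (chr14:35291855-35292528, −log10 q of 17.8) with 24 fragments (15.4 to 35.7) over 1.69, 2 bp downstream. PSMG4 had one of fold 4.16 (chr6:3258853-3259241, −log10 q of 6.47) with 20 fragments (12.2 to 30.9) over 4.05, 35 bp downstream, and a weaker one of 3.47. PSMA1 had a peak of fold 20.0035 with 63 fragments (48.4 to 80.6) at its listed start (chr11:14519698-14520948), 260 bp downstream, while the outer-end peak given above lay 124 kb upstream of that start.

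When a peak at an outer end or a summit within 1 kb of a listed start was counted, a measure chosen after the values were seen, 42 of the 48 genes had one (87.5%, interval 75.3 to 94.1), where all protein-coding genes had 65.0%. This included 13 of 14 core genes, 16 of 17 cap genes and 6 of 7 assembly genes. The genes left without either were PSMB5, PSMD1, PSMB10, PSMD5, PSMA8 and PSMB11. Their nearest peaks lay 11.8 kb from PSMB5, 3.73 kb from PSMD1, 16.2 kb from PSMB10, 4.64 kb from PSMD5, 11.9 kb from PSMA8 and 2.98 kb from PSMB11. PSMB5 and PSMB11 are neighbors 6.99 kb apart and had the same nearest peak, with a fold of 4.38 from 9 fragments. The peak near PSMA8 was stronger, with a fold of 24.1, and that near PSMD1 had 8.21.

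A summit within 1 kb of a listed start was found at 35 of the 42 proteasome genes with one (83.3%), compared with 62.1% of protein-coding genes with a listed start. PSMA7, PSMB1, PSMB6, PSMB7, PSMD4 and PSMG3 had no listed start in the table used. Of the 33 strongest peaks that could be placed, the median distance from the nearest start was 121 bp, while over 10143 protein-coding genes it was 235 bp. The summit lay within 100 bp of a start at 15 of the 33 (45.5%), compared with 27.7%, and within 250 bp at 21 (63.6%), compared with 52.0%. The summit was upstream of the start at 21 of the 33 and at or downstream of it at 12. Of the 10143 protein-coding genes with a peak and a listed start, 41.3% had it upstream. Among peaks of genes with known direction, 37 of 41 lay at the outer 5′ end, and 4 lay at the 3′ end only (PSMA5, PSMC1, PSMD9 and PSME3). The same share was not computed over all protein-coding genes, so it cannot be called particular to the proteasome genes.

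**Figure D4:**
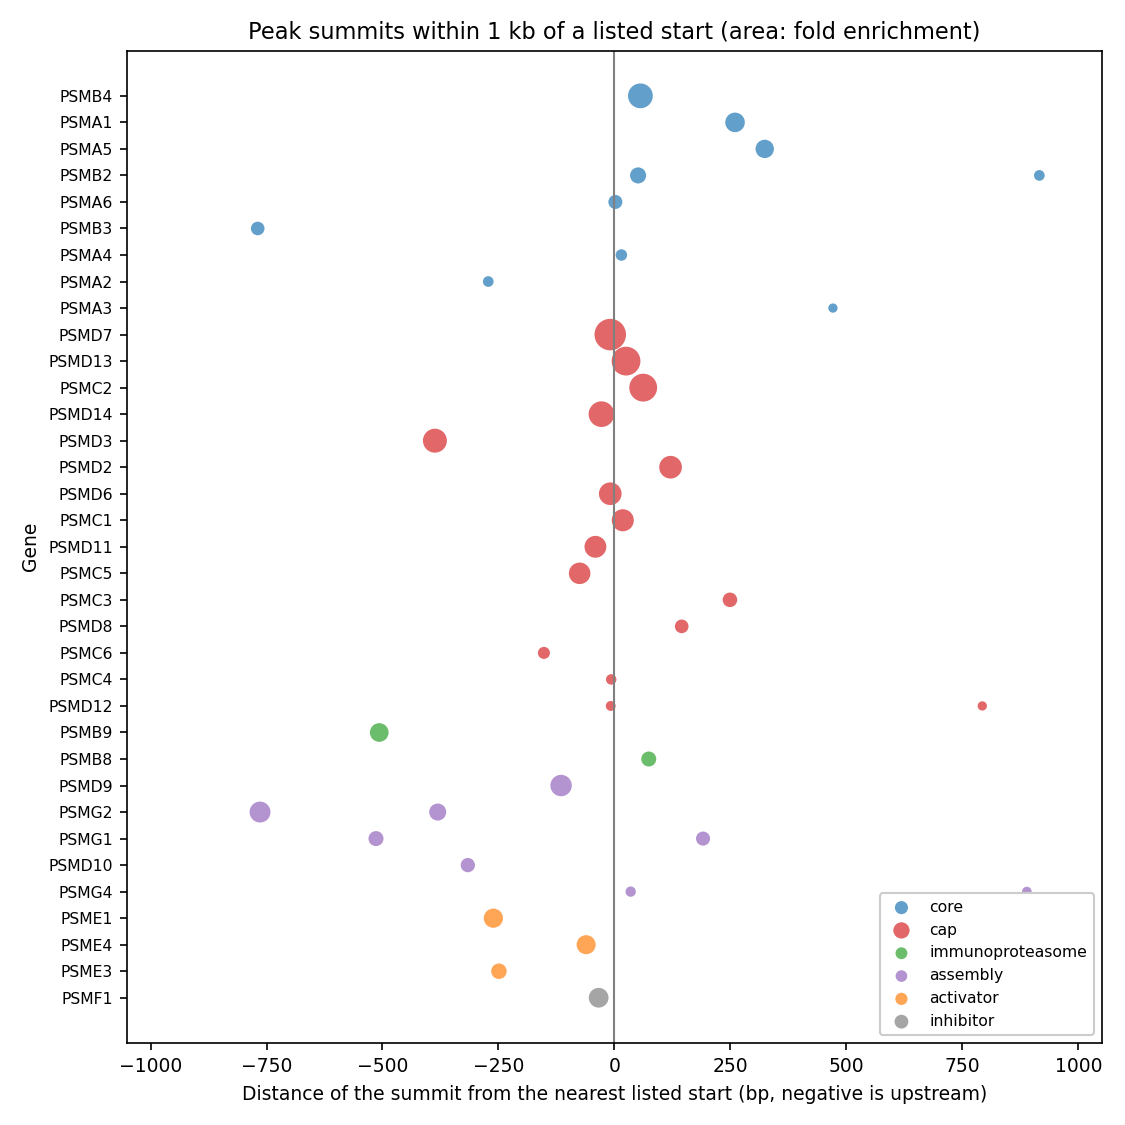
Position of each peak summit within 1 kb of a listed start (horizontal axis in bp, negative values upstream) for the 35 genes with one, by class, with point area rising with fold enrichment. The cap genes with the highest folds, PSMD7, PSMD13, PSMC2 and PSMD14, have summits from 28 bp upstream to 62 bp downstream, whereas PSMG2 and PSMB3 have summits 764 and 769 bp upstream.

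A peak between neighboring genes cannot be given to either of them. The strongest peak of 13 of the 39 genes (33.3%) also lay within 1 kb of an end of another protein-coding gene, compared with 29.8% of all protein-coding genes with a peak. These were PSMA1 with PDE3B, PSMA2 with MRPL32, PSMA7 with SS18L1, PSMB1 with TBP, PSMB8 and PSMB9 with TAP1, PSMC2 with PMPCB, PSMC5 with FTSJ3, PSMD9 with HPD, PSMD13 with SIRT3, PSME2 with RNF31, PSME4 with ACYP2 and PSMG1 with BRWD1. The PSMC5 summit was 17 bp from an end of FTSJ3 and the PSMC2 summit 163 bp from one of PMPCB. Without peaks whose summit was nearest to another gene, 31 of 48 proteasome genes (64.6%) and 55.2% of all protein-coding genes kept a peak, so the gap between them narrowed.

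The letters CGGAAG, on either strand, stood in a promoter window of 25 of the 42 proteasome genes with a listed start (59.5%), compared with 29.7% of 15843 protein-coding genes. The longer form CCGGAAG, which contains it, stood in 15 (35.7%) compared with 16.5%. CGGAAG was found in 12 of 16 cap genes, 6 of 10 core genes, 3 of 6 assembly genes and 1 of 3 immunoproteasome genes (PSMB8), and CCGGAAG in 9 of 16 cap and 1 of 10 core genes. A peak at an outer end was found at 20 of the 25 proteasome genes with CGGAAG and at 13 of the 17 without it, while over all protein-coding genes with a listed start it was found at 81.6% with the letters and 56.6% without them. The median fold was 22.6 with the letters and 12.9 without them, and over all protein-coding genes it was 19.8 and 16.4.

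A peak summit fell inside a promoter window of 17 proteasome genes. At 14 of them that window held CGGAAG (82.4%), compared with 50.9% of the 4094 protein-coding promoters with a summit inside, and at 13 the letters were within 50 bp of the summit (76.5%), compared with 34.2%. In the PSMA6 promoter the center of the nearest match was 0.5 bp from the summit, in PSMD14 1.5 bp, in PSMD12 2.5 bp, in PSMC4 3.5 bp, in PSMC1 5.5 bp, in PSMD9 8.5 bp and in PSMD7 10.5 bp. In PSMG4 it was 76.5 bp away. PSMD11, PSMC5 and PSME3 had a summit in a window that held no CGGAAG. In the sequences above, PSMD7 has CGGAAG beginning 34 and 1 bases before the start and PSMD14 at 29 and 3 bases before it, while PSMD12 has it on the other strand from 8 bases before it. These letters near the summit thus went with folds from 3.64 at PSMD12 to 55.2 at PSMD7, and with pileup intervals that did not overlap (4.80 to 18.4 and 142 to 193). The printed PSMB5 window held no CGGAAG, but the letters stood in 5 of the 9 genes without a peak at an outer end. PSMA8, which had no peak at an end or a listed start, had them at 3 places, and PSMD1, likewise, at 1. PSMC4 had them at 2 places with a fold of only 4.32.

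**Figure D5:**
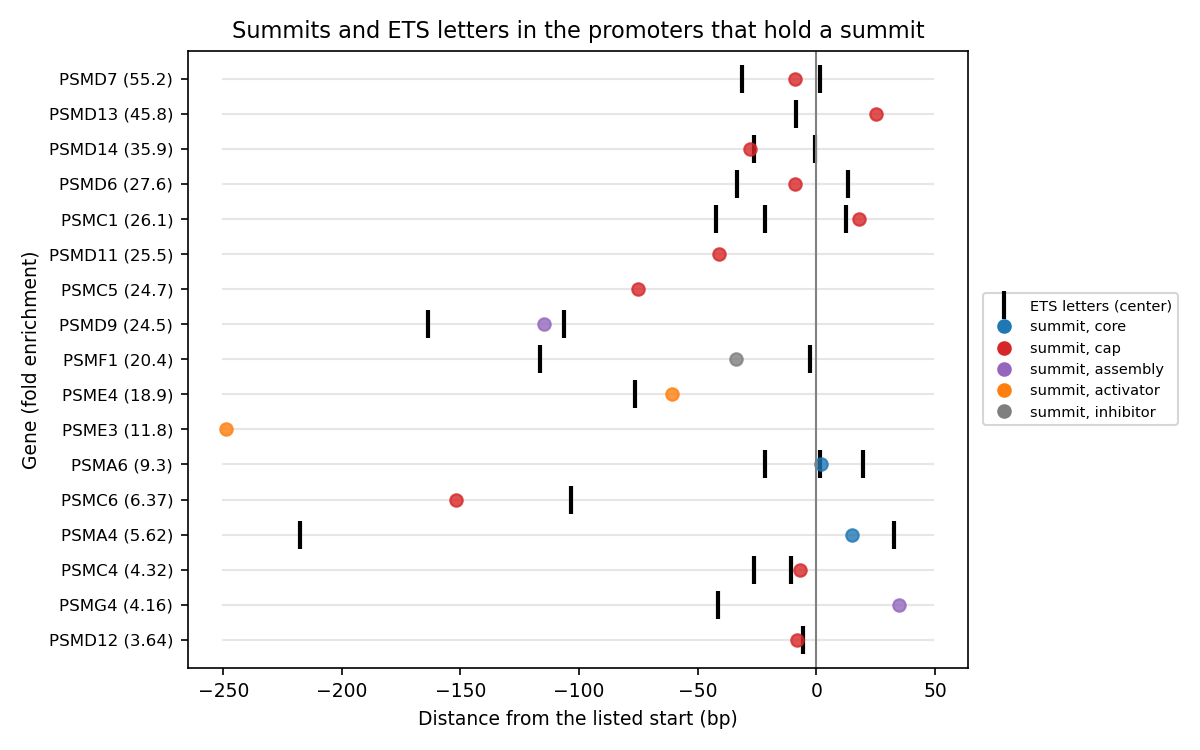
Positions of the peak summit (circles, colored by class) and of CGGAAG on either strand (black ticks) in the 17 promoters with a summit inside the window, in bp from the listed start, ordered by fold enrichment (in parentheses). In 13 promoters a tick lies within 50 bp of the circle, from the highest fold (PSMD7, 55.2) to the lowest (PSMD12, 3.64).

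Other letters were counted in the same windows on both strands. TGACNNNGC is the antioxidant response element read by NFE2L1 and NFE2L2, factors known to drive proteasome genes. It stood in 15 of 42 genes (35.7%) compared with 17.9% of all. The median fold was 18.1 with these letters and 19.7 without them. TGACNNNGC can overlap the AP-1 letters TGANTCA, which stood in 3 genes (PSMC5, PSMD2 and PSMD9, 7.14% compared with 8.04%). CCAAT, the NF-Y box, stood in 20 (47.6% compared with 42.1%), and GAAANNGAA, an interferon response form, in 8 (19.0% compared with 9.22%). These 8 were PSMB8, PSMB10, PSME1 and PSME2 of the interferon-inducible genes, but not PSMB9, and also PSMA4, PSMB4, PSMC2 and PSMG4. GCATGCGC, read by NRF1, stood in PSMA2 and PSMA4 (4.76% compared with 4.89%). A match says only that the letters are in the window.

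A list of 19 other genes of the proteasome pathway, chosen with earlier results of these data known, was described for comparison. Of these, 18 (94.7%, interval 75.4 to 99.1) had a peak, with a median fold of 21.9. These stand beside 81.3% (interval 68.1 to 89.8, which overlaps) and 17.4 for the proteasome genes and 62.1% and 17.6 for all protein-coding genes. The highest were POMP, the maturation factor of the core, with 68.1 from 182 fragments (157 to 210) over 1.69, and the shuttle factors UBQLN2 with 42.5 from 96 (77.8 to 117) and UBQLN4 with 36.7 from 111 (91.3 to 134). The fold of POMP was higher than that of any proteasome subunit gene, but its pileup interval overlapped those of PSMD7 (142 to 193) and PSMD14 (164 to 219). ADRM1 and SEM1, which encode cap subunits outside the symbol rule, had 21.3 and 13.2. The gene of NFE2L1 itself had 20.9, and that of DDI2, the protease that activates it, had 22.5. NGLY1, whose enzyme also acts on NFE2L1, had no peak within 1 kb, its nearest lying 5981 bp away.

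Of 52 pseudogenes of these subunits, 1 had a peak (1.92%), where the share over all 16845 pseudogenes was 5.79%. This was PSMD4P1 on chromosome 21, where the peak had a fold of 57.5. Whether that peak lies nearer to an end of another gene was not examined. A further 18 peaks lay inside 10 proteasome genes away from their outer ends, 6 of them at a listed start. Among the other 12, the highest was in PSME4 (chr2:53946702-53947139), 24.1 kb into the gene, with a fold of 16.5 from 49 fragments (36.3 to 64.8). PSMB3 had one 1.93 kb into the gene with a fold of 10.3 from 25 fragments (16.2 to 36.9) over 1.52. Its outer-end peak had a fold of 8.65 from 31 fragments (21.1 to 44.0) over 2.70, so the pileup intervals overlapped.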

How the data were processed

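ChIP-seq was performed on 1 anti-Flag immunoprecipitate and 1 input library of A549-shETV4 cells that expressed transfected Flag-ETV4, with no replicate. Per the submitters' processing notes, the tools were Bowtie2 2.4.1, SAMtools, MACS2 2.2.7.1 and deepTools 3.5.0, on hg38. The authors deposited a peak list that gives a ratio (fold enrichment over control), and −log10 p-values and −log10 q-values at each summit. The input was used only through these values. The parameters and the handling of duplicate reads are not given in the sources used here.

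The pileup and control level were solved for at every summit from its ratio and −log10 p, with a pseudocount of 1 in the fold and a Poisson p-value, tested on simulated data. All pileups came within 0.01 of a whole number. The median pileup over the list was 26 fragments. The control level cannot go below 1.28, where the strongest peaks of PSMA1, PSMD6 and PSMG2 stood. Intervals (exact Poisson for pileups, Wilson for shares, both 95%) cover counting error only. They do not allow for amplified copies of 1 fragment, nor for genes that share a source.

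Genes came from RefSeq on GRCh38.p14, with outer ends over all transcripts, and starts and promoter sequences for 42 of the 48 members. Exons, proteins and signal tracks were not used here. A gene had a peak when the interval came within 1 kb of an outer end. Every member is named. Full values are given for the strongest peak of members with more than 1, for those with a peak outside core and cap, and for the 3 highest and 3 lowest folds in each of these. The members, classes and lists were chosen with earlier results of these data known. Alternatives covered windows, summits, fold and q limits, 5′ ends, shared peaks and class borders. Tools were matplotlib 3.10.9, scipy 1.17.1, pandas 2.3.3 and numpy 2.4.6 under Python 3.11.15.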

Additional observations from a re-analysis of the deposited data

How the results depend on the processing

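The share of the 48 proteasome genes with a peak, 81.3%, is given here beside that of all protein-coding genes under each setting. Windows of 500 bp, 2 kb and 3 kb gave 81.3%, 81.3% and 83.3%, beside 59.2%, 65.7% and 68.4%. Summits in place of intervals gave 79.2% beside 58.5%. Folds over 5 and over 10 gave 75% and 60.4% (29 genes), beside 57.5% and 45.2%. A −log10 q over 10 gave 72.9% beside 53.6%. With 5′ ends only, 33 of the 42 genes with a known direction had a peak (78.6% beside 61.3%). Leaving out peaks nearest to another gene gave 31 genes (64.6% beside 55.2%). Symbols that continue after the digits made 50 genes, of which 41 had a peak. Counting listed starts as well, which was added after seeing the data, gave 42 of the 48 genes (87.5% beside 65.0%). A window of 3 kb added PSMB11, and measuring from the summit lost PSME2. A fold over 5 lost PSMA3, PSMC4 and PSMD12. The count of core genes fell from 12 to 7 with a fold over 10, while that of cap genes fell from 16 to 12. The small classes moved with their borders: leaving out peaks nearest to another gene left 1 immunoproteasome gene, PSMB8, and counting PSME1 and PSME2 there gave 4. Counting only PSMG genes as assembly genes gave 3. The median fold of 17.4 was 12.9 without peaks nearest to another gene, and the median pileup, another unit, was 51 fragments. No paired analysis was possible because there was 1 immunoprecipitate and no test. The depth limits the weak peaks most, since at 10 fragments the interval ran from 4.80 to 18.4.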
